A study of Mus musculus with 20 samples.

Results

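The DNA replication genes are 47 mouse genes for the enzymes and loading factors that copy the genome and for the enzymes that supply its nucleotides. They were chosen by name, and their probe sets are those that the platform annotation pairs with a member's symbol and no other. By that rule 46 of the 47 were measured, by 99 probe sets, among 18193 genes in all, and 1, Chaf1a, was not matched. The samples were 20 arrays of total RNA from 7 clonal lines derived from parental Swiss 3T3, an immortalized mouse embryonic fibroblast population. The labels call 4 lines preadipose: Swiss 19, with 2 arrays, and Swiss 2, Swiss 8 and Swiss 9, with 3 arrays apiece. They call 3 lines non-adipogenic, and Swiss 3, Swiss 5 and Swiss 22 also have 3 arrays apiece. All 7 lines were untreated, carried no labelled transgene, grew in DMEM with 10% bovine serum, which does not induce differentiation, and were harvested while still dividing. Each line is 1 clone, so a class is represented by 4 or 3 clones. The labels do not say whether arrays of a line were separate cultures, so p-values made from the spread between arrays measure that spread alone, which may be technical.

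Replication starts in G1, when the origin recognition complex (Orc1 to Orc6), Cdc6 and Cdt1 load the Mcm helicase onto origins, and geminin (Gmnn) later blocks Cdt1. In S phase Cdc45 and the GINS proteins turn the loaded Mcm ring into an active helicase. DNA polymerase alpha with primase starts each strand, and polymerases delta and epsilon extend it while held by the sliding clamp Pcna, which the Rfc complex loads. Transcription of many of these genes is known to depend on E2F factors, which the retinoblastoma family holds back until cells commit to S phase. In RNA from a whole culture, fewer cells in S phase and less RNA per cell cannot be told apart.

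Levels below are scaled intensities, the deposited values multiplied so that each array has the same trimmed mean, and each gene is read by its brightest named probe set. Log2 differences are on a different scale, the quantile-normalized log2(intensity + 32), and understate changes, most of all those of dim genes. Even Mcm5, a bright gene, was 3.49-fold lower in Swiss 3 by scaled intensity, at a log2 difference of -1.38. A level was above background when a line's mean lay over that of 95% of the unspiked bacterial control probe sets. By that measure 44 of the 46 genes were above background in all 7 lines. Cdc6 was not above it in Swiss 3, and Tyms was not in Swiss 19. Array mean intensities, as deposited, spanned a 6.11-fold range, and hybridization spikes divided the arrays into 11 dim ones (Swiss 2, Swiss 8, Swiss 9 and 2 of Swiss 3) and 9 bright ones (Swiss 19, 1 of Swiss 3, Swiss 5 and Swiss 22). All 9 measured fibroblast markers were above background in every line. Of markers of other cell types, 2 of 6 adipocyte, 5 of 8 leukocyte, 0 of 7 endothelial and 2 of 7 epithelial ones were also above background in every line. Among them, Cidec and Lep (adipocyte), Ptprc and Itgam (leukocyte), Pecam1, Tie1 and Vwf (endothelial) and Cdh1 (epithelial) were above background in no line.

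The first comparison asks whether replication genes separate preadipose from non-adipogenic clones, with the line as the replicate. No member passed the threshold. In limma's fit of the 7 line means, 0 of 46 genes were higher and 0 lower at an adjusted p under 0.05, where 0.583% and 0.951% of all genes were. At an unadjusted p under 0.05, 11 members were higher and 0 lower, against 7.17% and 8.45% of all genes. The preadipose line means lay wholly above the non-adipogenic ones for 8 members (6.39% of all genes): Orc4, Orc6, Mcm2, Mcm3, Mcm4, Pcna, Rpa3 and Dut. The preadipose means lay wholly below for 0 members (7.53% of all genes). Mcm2, Mcm3 and Mcm4 each overlapped on another probe set above background in every line, where Swiss 2 lay below Swiss 5 and Swiss 22 by scaled intensity. Of the 46 differences 40 were positive (51.4% of all genes), with a median of 0.27 on the log2 scale against 0.0033 for all genes, but only 13 were positive when arrays were centred on their medians and 6 without normalization between arrays. In those settings the members' median was -0.12 and -0.25, beside -0.063 and -0.19 for all genes.

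The class difference leaned on 1 clone. Without Swiss 3 the median difference was 0.066, beside 0.0037 for all genes, and again no member was called higher (0.115% of all genes). There 36 differences were positive and 7 members were higher at an unadjusted p under 0.05 (limma). The shares of all genes for these 2 counts were not computed without Swiss 3, so the counts have no background. Members called higher numbered 1 with a smaller pseudocount of 8 (0.61% of all genes), 2 among genes in the upper part of mean level (1.87%), and 15 with all arrays fitted and the line as a random block (5.34%). The brightness groups give only part of this comparison. Within the dim arrays, 3 preadipose lines stood against Swiss 3 alone, and 16 members were called higher (1.04% of all genes). Within the bright arrays, Swiss 19 stood against all 3 non-adipogenic lines, 0 members were called (0% of all genes) and the median was 0.091.

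Dut, which hydrolyses dUTP so that uracil stays out of DNA, had the lowest p. Its line means were 1293 (Swiss 2), 1487 (Swiss 8), 1049 (Swiss 9) and 944 (Swiss 19) in preadipose lines, against 309 (Swiss 3), 655 (Swiss 5) and 572 (Swiss 22) in non-adipogenic lines. The classes did not overlap, and the ratio of class means was 2.33 (limma, log2 difference 0.76 ± 0.16 SE, adjusted p = 0.075). Without Swiss 3 the log2 difference was 0.59 (limma, adjusted p = 0.15). Dut and Pcna were the members with the largest part of their sum of squares between classes, 74.8% and 71.2%.

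**Figure D1:**
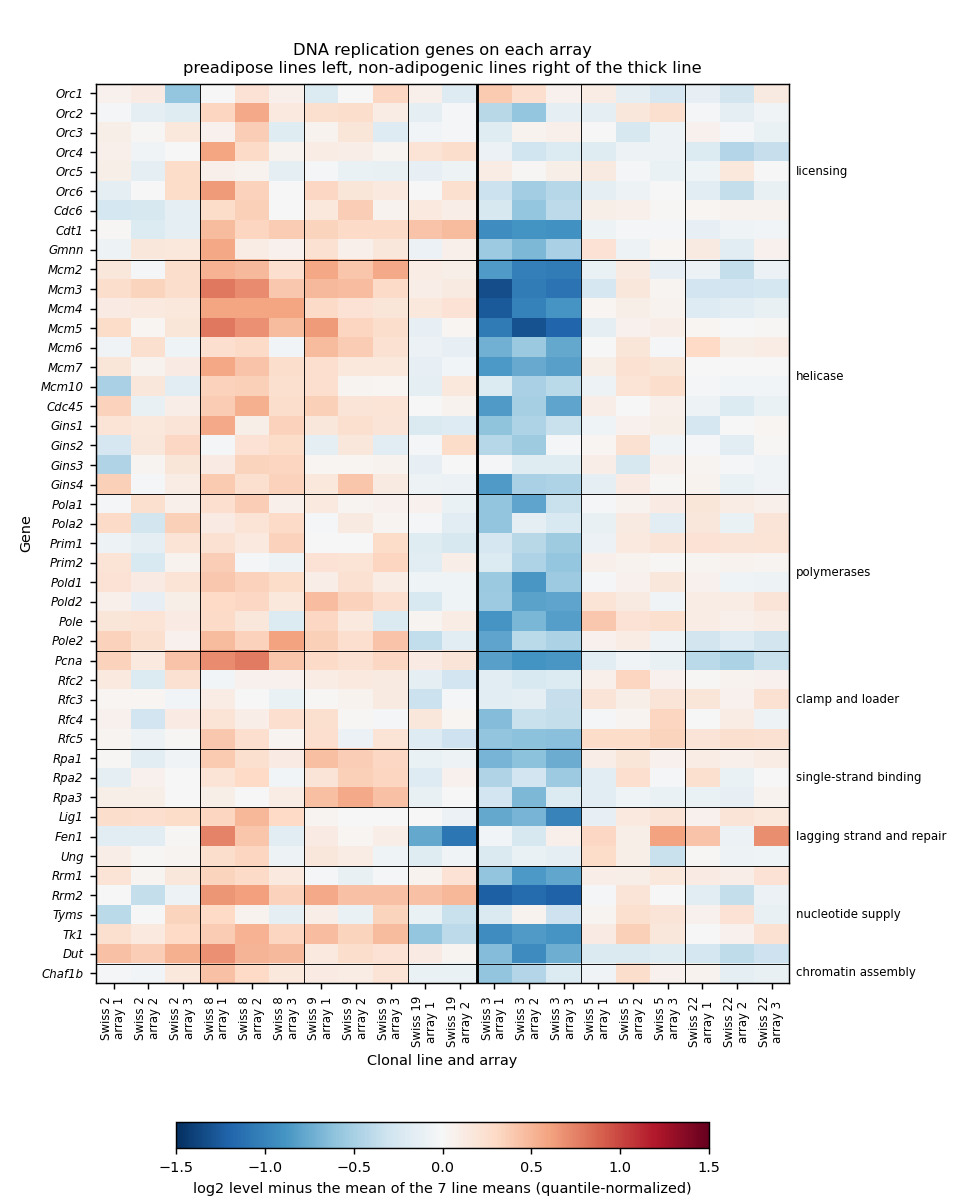
Log2 level of each of the 46 measured genes (rows, grouped by role) on each of the 20 arrays (columns), minus the mean of the 7 line means, after quantile normalization. Preadipose lines are left of the thick line and non-adipogenic lines right of it. The 3 Swiss 3 columns are blue in nearly all rows except Orc1, Orc3, Orc5 and Fen1, and Swiss 8 is mostly red, a shade that depends on the normalization.

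Members also differed between clones of a class. The tests among lines use the spread between arrays, so their counts cannot be set against those between classes. By limma's moderated F test on the 20 arrays, 24 members differed among the 4 preadipose lines (23.2% of all genes), 35 among the 3 non-adipogenic lines (16.4%) and 38 among all 7 (35.8%). Among the preadipose lines the count was 42 with arrays centred on their medians and 45 without normalization (68.7% and 70% of all genes). The median member had 53.0% of its sum of squares between lines of a class, 19.3% between classes and 14.5% between arrays of a line. Over all genes those medians were 32.5%, 6.74% and 52.1%. These shares are not divided by the number of independent comparisons behind each, so they do not say which differences were larger. Rfc5, a subunit of the clamp loader, had 91.0% between lines of a class and Tk1, the thymidine salvage kinase, 79.7%. At the other end, Orc3 had 78.5% and Orc5 71.3% between arrays of a line.

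Swiss 3 was the clone that stood apart. Against the mean of the other 6 lines, 39 of 46 members were lower in Swiss 3 and 0 higher (limma, adjusted p under 0.05), where 11.7% of all genes were lower and 12.2% higher. The median difference was -0.60, against -0.0049 for all genes. Swiss 3 had the lowest of the 7 line means for 39 members, where it was lowest for 18.8% of all genes. Swiss 8 had the highest for 28 members (15.7% of all genes), an order that depends on the normalization. Among the called members, the other lines' mean level was 1.27 (Rfc2) to 3.57 (Mcm3) times that of Swiss 3.

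Its low levels were found against each set of lines that was tried. Against Swiss 5 and Swiss 22 alone, 35 members were lower and 0 higher (8.7% and 8.03% of all genes). Within the dim arrays 38 were lower and 0 higher (11.7% and 12.4%). Within the bright arrays, where Swiss 3 has 1 array, 25 were lower and 0 higher (4.74% and 4.6%). With arrays centred on their medians 40 members were lower and 0 higher in Swiss 3 (25.2% and 3.38% of all genes), and without normalization 42 and 0 (32.8% and 1.18%).

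Other measures of Swiss 3 lay partly inside and partly outside the ranges of the other lines. Its actin 3'/5' ratios were 0.970 to 0.986 on 3 arrays, against 0.969 to 1.10 in the other lines. Its Gapdh 3'/5' ratios were 0.776 to 0.797, against 0.787 to 0.880. The summed level of 8 leukocyte markers was 3202 in Swiss 3, against 2047 to 2647 in the other lines, with Ptprc and Itgam not above background. Within that list Lyz2, lysozyme, was 877 in Swiss 3 and 207 to 301 in the others (limma, adjusted p = 3.79e-07). It was the 1 leukocyte marker called in Swiss 3. The 7 endothelial markers summed to 829 in Swiss 3, against 475 to 626, and the 7 epithelial markers to 1476, against 965 to 1431, with none called in either list. The 6 adipocyte markers summed to 2116 in Swiss 3, against 720 to 2203. Of these Fabp4, the fatty acid binding protein, and Adipoq, adiponectin, were higher in Swiss 3, by 0.68 and 0.25 on the log2 scale (limma, adjusted p = 8e-05 and 0.049), with Cidec and Lep not above background. The 9 fibroblast markers summed to 325310 in Swiss 3, against 286111 to 430236, with 4 called higher and 5 lower. The part of these measures in the replication gene levels was not tested.

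**Figure D2:**
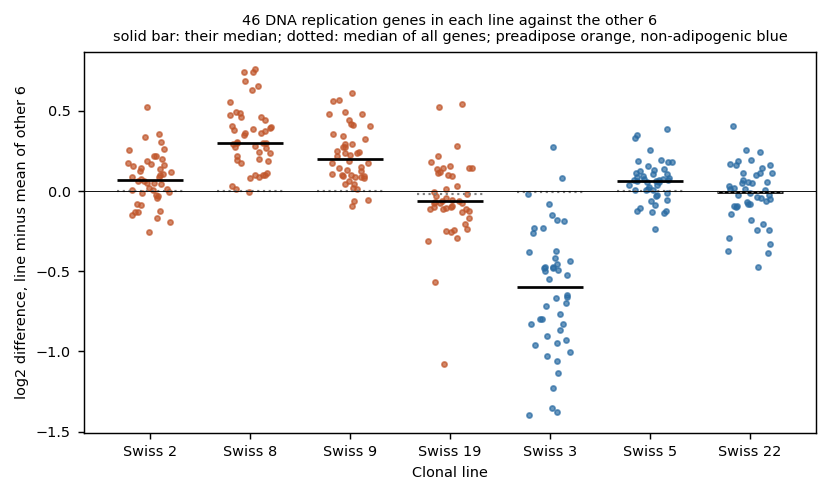
Log2 difference of each of the 46 genes (points) in each line against the mean of the other 6 lines, quantile-normalized. Solid bars are the members' medians and dotted lines the medians of all genes. The Swiss 3 median is -0.60, and those of Swiss 8 and Swiss 9, 0.30 and 0.20, fall below 0 when arrays are centred on their medians instead.

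Among the licensing genes, 6 of 9 were lower in Swiss 3. Cdt1, the loader of the Mcm ring, had 1144, 1222 and 1202 on the Swiss 3 arrays, against 2200 to 4098 on the other 17, with a median of 2747. The ranges did not overlap, and the other lines' mean was 2.69 times that of Swiss 3 (limma, log2 difference -1.06 ± 0.049 SE, adjusted p = 2.2e-11). Its line means were 2444 (Swiss 2), 3854 (Swiss 8), 3636 (Swiss 9) and 3913 (Swiss 19) in preadipose lines, against 1189 (Swiss 3), 2682 (Swiss 5) and 2658 (Swiss 22) in non-adipogenic lines. Swiss 2 thus lay among the non-adipogenic lines for Cdt1. Geminin (Gmnn), the Cdt1 inhibitor, was lower by 0.66 on the log2 scale, and Orc2, Orc4 and Orc6 by 0.44, 0.23 and 0.49.

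Cdc6, the ATPase that acts with Orc, had a line mean of 98.5 in Swiss 3, where it was above background on 1 of 3 arrays. Its means in the other lines were 185 to 365, and its log2 difference of -0.47 passed the test but rests partly on levels not above background. The remaining origin recognition genes did not. Orc3 had 920, 1185 and 1214 in Swiss 3, against 870 to 1600 on the other arrays, and its log2 difference was -0.02 ± 0.092 SE (limma, adjusted p = 0.92). Orc5 and Orc1 had positive differences of 0.08 and 0.27 (limma, adjusted p = 0.52 and 0.16). The 2 probe sets of Orc1 had opposite signs in Swiss 3, 0.27 and -0.28, and neither passed.

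The RefSeq windows of 300 bases at the transcription starts of Cdt1 (chr8:122567765-122568064, plus strand) and Orc3 (chr4:34614893-34615192, minus strand), in GRCm38.p6, are shown because Cdt1 was lower in Swiss 3 and Orc3 was not called there. Each is written 5′ to 3′ on the strand of its gene, with capitals for E2F words. The words searched were TTCCCGC and TTCGCGC on both strands. Also searched was TTGGCGC on both strands. The last word was TTGCCGC, likewise.
Cdt1: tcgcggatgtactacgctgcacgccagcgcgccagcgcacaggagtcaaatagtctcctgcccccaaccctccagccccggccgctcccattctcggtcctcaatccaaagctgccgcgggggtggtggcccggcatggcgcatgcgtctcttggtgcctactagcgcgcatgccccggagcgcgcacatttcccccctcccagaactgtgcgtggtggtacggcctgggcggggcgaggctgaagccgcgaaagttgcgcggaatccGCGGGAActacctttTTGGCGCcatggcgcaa
Orc3: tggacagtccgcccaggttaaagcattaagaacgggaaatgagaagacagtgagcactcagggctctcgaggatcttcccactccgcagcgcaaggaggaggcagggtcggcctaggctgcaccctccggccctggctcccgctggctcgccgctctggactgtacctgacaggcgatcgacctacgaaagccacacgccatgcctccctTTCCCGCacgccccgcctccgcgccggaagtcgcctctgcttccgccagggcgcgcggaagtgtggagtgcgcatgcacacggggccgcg
Cdt1 holds 2 E2F words near its start and Orc3 holds 1.

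The helicase genes include Mcm5, the member with the widest range of line means on the log2 scale. All 12 were lowest in Swiss 3, and 11 passed the test there, the exception being Gins3 (-0.15, limma, adjusted p = 0.34). Mcm5 had 1343, 1082 and 1222 in Swiss 3, against 3148 to 6615 on the other arrays, a 3.49-fold lower mean (limma, log2 difference -1.38 ± 0.083 SE, adjusted p = 6.1e-10). Mcm3 had 807, 1105 and 1042 in Swiss 3, against 2306 to 5547, a 3.57-fold lower mean (limma, log2 difference -1.36 ± 0.084 SE, adjusted p = 8.6e-10). Neither gene's ranges overlapped. The other 4 subunits of the ring, Mcm2, Mcm4, Mcm6 and Mcm7, were 3.05-fold, 3.14-fold, 2.12-fold and 2.16-fold lower. Mcm10, which joins the helicase as it is activated, was 1.76-fold lower, and Cdc45 2.87-fold lower. Of the GINS subunits, Gins4 was 1.95-fold, Gins1 2.24-fold and Gins2 1.47-fold lower.

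Between classes, Mcm3 had the largest difference of the helicase genes. Its line means were 3541 (Swiss 2), 4911 (Swiss 8), 4180 (Swiss 9) and 3196 (Swiss 19) in preadipose lines, against 984 (Swiss 3), 2924 (Swiss 5) and 2335 (Swiss 22) in non-adipogenic lines. They did not overlap, and the ratio of class means was 1.90 (limma, log2 difference 0.85 ± 0.26 SE, adjusted p = 0.17). Without Swiss 3 that difference was 0.51 (limma, adjusted p = 0.22). On another Mcm3 probe set, above background in every line, Swiss 2 with 2135 lay below Swiss 5 with 2309 and Swiss 22 with 2275. On the remaining Mcm3 probe sets the classes did not overlap by scaled intensity. For Mcm5, Swiss 19 with 3347 lay below Swiss 5 with 3570 and Swiss 22 with 3649, so the classes overlapped, and its difference was 0.68 ± 0.31 SE.

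The windows of Mcm3 (chr1:20820263-20820562, minus strand), Mcm5 (chr8:75109259-75109558, plus strand) and Mcm6 (chr1:128359656-128359955, minus strand), from RefSeq in GRCm38.p6 and in the same notation, are shown because each holds a pair of overlapping E2F words on opposite strands.
Mcm3: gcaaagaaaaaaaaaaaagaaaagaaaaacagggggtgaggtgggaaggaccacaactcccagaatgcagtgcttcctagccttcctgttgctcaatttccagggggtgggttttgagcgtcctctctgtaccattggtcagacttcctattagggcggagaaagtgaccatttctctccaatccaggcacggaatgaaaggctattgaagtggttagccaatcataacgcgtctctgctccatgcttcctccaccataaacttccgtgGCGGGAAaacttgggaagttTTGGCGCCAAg
Mcm5: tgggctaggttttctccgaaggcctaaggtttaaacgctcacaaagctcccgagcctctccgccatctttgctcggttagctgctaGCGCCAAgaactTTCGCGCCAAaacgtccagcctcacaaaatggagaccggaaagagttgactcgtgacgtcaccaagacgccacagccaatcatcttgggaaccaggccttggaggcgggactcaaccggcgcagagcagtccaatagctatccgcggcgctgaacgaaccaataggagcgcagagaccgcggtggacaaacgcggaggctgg
Mcm6: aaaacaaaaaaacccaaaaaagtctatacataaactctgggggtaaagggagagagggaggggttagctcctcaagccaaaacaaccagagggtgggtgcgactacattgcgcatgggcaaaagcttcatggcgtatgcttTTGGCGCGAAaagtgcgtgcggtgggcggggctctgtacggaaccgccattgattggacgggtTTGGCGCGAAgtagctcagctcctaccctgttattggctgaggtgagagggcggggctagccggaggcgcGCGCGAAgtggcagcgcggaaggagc
The paired words start 3 bases apart, share 4 bases and make a run of 10. Among the 47 windows of the members, 4 held such a pair (8.51%), those of Mcm3, Mcm5, Mcm6 and 1 of Mcm7, against 38 of 32851 windows of all genes (0.116%). The pair was picked out after the windows were read.

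Windows were given for 39 of the 47 members. Of their 47 windows, 26 held at least 1 E2F word (55.3%), against 9.57% of all windows and 13.6% of those of genes named on the array. The share was 55.3% for windows of members lower in Swiss 3 (38 windows) and 50% for those of measured members not called lower (8 windows). CCAAT, on both strands, was in 53.2% of the members' windows and 37.4% of all. It can share bases with the reverse of TTGGCGC. The words TTTGAA and TTCGAA, of a cell cycle promoter element named CHR, were in 14.9% of the members' windows and 19.2% of all. A match describes the letters and shows no binding.

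All 8 polymerase and primase genes were lower in Swiss 3. Pole, the catalytic subunit of polymerase epsilon, had 288, 370 and 289 in Swiss 3, against 648 to 1341 on the other arrays. That is a 3.20-fold lower mean with no overlap (limma, log2 difference -0.93 ± 0.093 SE, adjusted p = 3.6e-07). In the other lines Pole was even: 1002 (Swiss 2), 962 (Swiss 8), 958 (Swiss 9) and 970 (Swiss 19) in preadipose lines, and 1185 and 984 in Swiss 5 and Swiss 22. Its class difference of 0.24 turned to -0.088 without Swiss 3.

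Pole2, the accessory subunit, varied in both classes. Its line means were 872 (Swiss 2), 1174 (Swiss 8), 1028 (Swiss 9) and 510 (Swiss 19) in preadipose lines, against 347 (Swiss 3), 720 (Swiss 5) and 506 (Swiss 22) in non-adipogenic lines. Swiss 19 and Swiss 22 were close to each other, and the class difference was 0.45 ± 0.20 SE (limma, adjusted p = 0.33). For the polymerase delta subunits Pold1 and Pold2 the means were 2.21-fold and 2.45-fold lower in Swiss 3. For polymerase alpha (Pola1, Pola2) and primase (Prim1, Prim2) they were 2.31-fold, 1.52-fold, 1.66-fold and 1.79-fold lower.

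Pcna, the sliding clamp, had line means of 15802 (Swiss 2), 20913 (Swiss 8), 16682 (Swiss 9) and 13217 (Swiss 19) in preadipose lines, against 6325 (Swiss 3), 11894 (Swiss 5) and 9653 (Swiss 22) in non-adipogenic lines. The classes did not overlap, and the ratio of class means was 1.79 (limma, log2 difference 0.80 ± 0.18 SE, adjusted p = 0.085). On the Swiss 3 arrays Pcna had 6357, 6252 and 6365, against 9304 to 23025 on the others, a 2.32-fold lower mean (limma, adjusted p = 1.9e-09). Pcna was also lower in Swiss 22, by 0.47 on the log2 scale (limma, adjusted p = 9.3e-05), where no member was lower with arrays centred on their medians. All 4 clamp loader subunits among the members were lower in Swiss 3: Rfc5 2.09-fold, Rfc4 2.01-fold, Rfc3 1.34-fold and Rfc2 1.27-fold.

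**Figure D3:**
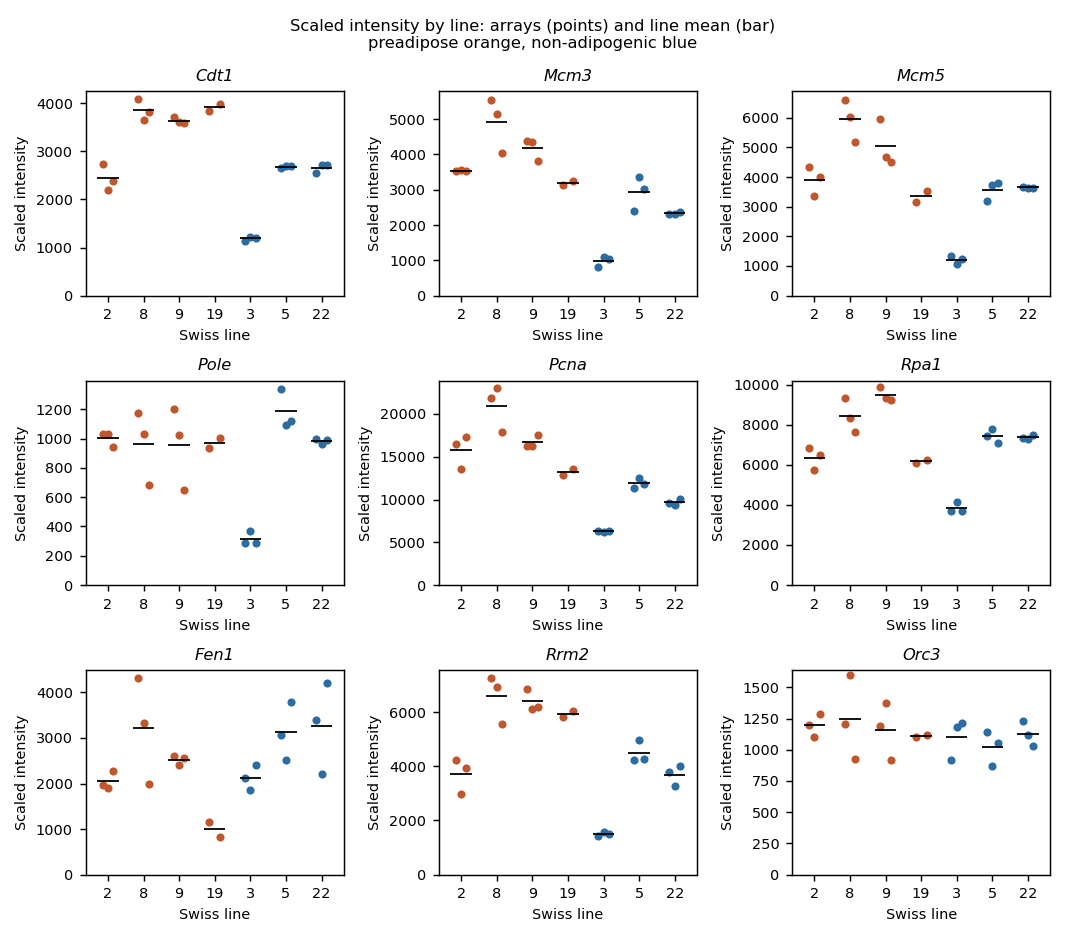
Scaled intensity of 9 genes on every array (points) and its mean in each line (bars), with preadipose lines in orange, left, and non-adipogenic lines in blue, right. The Swiss 3 points of Cdt1, Mcm3, Mcm5, Pole, Pcna, Rpa1 and Rrm2 lie below every other point of their panel, and those of Fen1 and Orc3 do not.

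The 3 genes of RPA, the complex that coats single-stranded DNA, were all lower in Swiss 3. Rpa1 had 3685, 4118 and 3694 there, against 5754 to 9871 on the other arrays, a 1.97-fold lower mean (limma, log2 difference -0.80 ± 0.056 SE, adjusted p = 4.6e-09). Its line means were 6343 (Swiss 2), 8416 (Swiss 8), 9474 (Swiss 9) and 6166 (Swiss 19) in preadipose lines, against 3832 (Swiss 3), 7436 (Swiss 5) and 7378 (Swiss 22) in non-adipogenic lines, so the classes overlapped. Rpa3 had 1392 (Swiss 2), 1446 (Swiss 8), 2155 (Swiss 9) and 1313 (Swiss 19) in preadipose lines, against 920 (Swiss 3), 1221 (Swiss 5) and 1311 (Swiss 22) in non-adipogenic lines. Swiss 19 and Swiss 22 were nearly equal, and the class difference was 0.33 ± 0.14 SE (limma, adjusted p = 0.31). Rpa2 was 1.95-fold lower in Swiss 3.

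The genes of Okazaki fragment processing and uracil removal did not move as 1 group. Lig1, the ligase that joins the fragments, was 2.71-fold lower in Swiss 3. Ung, the uracil glycosylase, had a difference of -0.18 and did not pass (limma, adjusted p = 0.21). Fen1, the flap nuclease, had 2111, 1864 and 2409 in Swiss 3, inside the range of 830 to 4312 on the other arrays. Its lowest line was Swiss 19, with 1152 and 830 (limma, log2 difference of Swiss 19 -1.08 ± 0.18 SE, adjusted p = 0.00056). The other probe set of Fen1 disagreed: its line mean was 461 in Swiss 3, against 686 to 1400 in the other lines, with 1146 in Swiss 19 (limma over all probe sets, log2 difference of Swiss 3 -0.78 ± 0.094 SE, adjusted p = 5.87e-06). The maker's suffix x on the first marks a probe set that may also match other transcripts. The probe sets used for Mcm5 and Rrm2 carry the same suffix, and other probe sets of those genes are given below.

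In nucleotide supply, Rrm2, the S-phase subunit of ribonucleotide reductase, had the largest log2 difference of all members in Swiss 3. On the Swiss 3 arrays it had 1432, 1572 and 1487, against 2979 to 7257 on the others, a 3.43-fold lower mean (limma, log2 difference -1.40 ± 0.078 SE, adjusted p = 2.5e-10). Its line means were 3709 (Swiss 2), 6584 (Swiss 8), 6398 (Swiss 9) and 5924 (Swiss 19) in preadipose lines, against 1497 (Swiss 3), 4486 (Swiss 5) and 3695 (Swiss 22) in non-adipogenic lines. Swiss 2 was close to Swiss 22 and below Swiss 5, and the class difference was 0.78 ± 0.31 SE (limma, adjusted p = 0.27). The large subunit Rrm1 was 2.06-fold lower in Swiss 3, Tk1 2.57-fold and Dut 3.23-fold. Tyms, thymidylate synthase, was above background on 1 of 3 Swiss 3 arrays and was not called (limma, adjusted p = 0.36). Chaf1b, the only measured subunit of the histone chaperone CAF-1, had 484 in Swiss 3, against 715 to 1071 in the other lines, 1.74-fold lower (limma, adjusted p = 0.00013). Its class means were 869 ± 157 in preadipose lines (SD, n = 4) and 692 ± 194 in non-adipogenic lines (SD, n = 3), which overlapped (limma across all genes, adjusted p = 0.51).

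**Figure D4:**
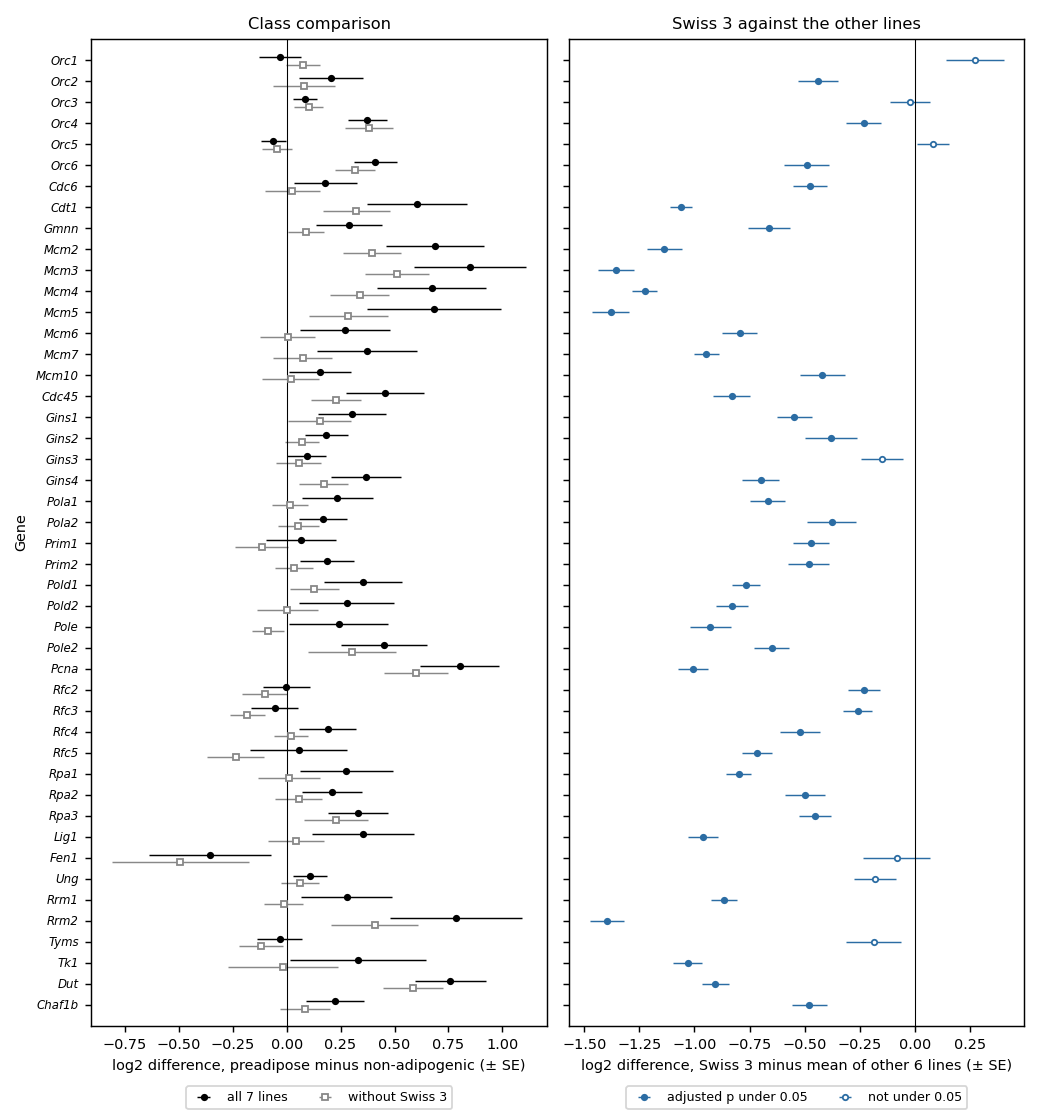
Left, log2 difference of each gene between preadipose and non-adipogenic line means, ± SE, over all 7 lines (black) and without Swiss 3 (grey squares). Right, log2 difference of Swiss 3 from the mean of the other 6 lines, ± SE, with open points for adjusted p of 0.05 or more. On the left most squares lie nearer 0 than their black points, with a median of 0.066 against 0.27, and on the right 39 of 46 points are filled and below 0.

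Directions in the other clones depended on the normalization, though they did not change in every setting. With the trimmed-mean scaling 24 members were higher in Swiss 8 and 16 in Swiss 9, with 0 lower in either. Deposited array medians were 4.1 to 23, all below the pseudocount added before the log2. With centred arrays, members and all genes were more often called lower in Swiss 2, Swiss 8 and Swiss 9, whose arrays were dim. Both were more often called higher in Swiss 19, Swiss 5 and Swiss 22, whose arrays were bright. The part of brightness in these changes was not tested. In Swiss 8, 30 members were higher and 0 lower (7.61% and 7.98% of all genes), but 1 was higher and 13 lower with arrays centred on their medians (8.18% and 37.4% of all genes). In Swiss 9, 19 were higher and 0 lower (6.55% and 6.36%), but 0 higher and 6 lower with centred arrays (5.67% and 25.6%). Part of the Swiss 8 and Swiss 9 counts came from having Swiss 3 among the lines compared. Against the 5 lines other than Swiss 3, 18 members were higher and 0 lower in Swiss 8 (5.35% and 5.69% of all genes), and 9 higher and 1, Rrm1, lower in Swiss 9 (4.92% and 4.8%). Within the dim arrays, Swiss 3 included, 30 were higher and 0 lower in Swiss 8 (6.96% and 6.6%), and 21 and 0 in Swiss 9 (6.79% and 6.01%). Within the dim arrays without Swiss 3, 6 were higher in Swiss 8 and 0 lower (2.07% and 2.42%), the 6 being Cdt1, Mcm4, Mcm5, Mcm7, Pcna and Rrm2. There 2, Rpa1 and Rpa3, were higher in Swiss 9 (5.16%), and 3, Lig1, Rrm1 and Dut, were lower (4.35%).

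Swiss 2 had 7 members higher and 1 lower (9.16% and 9.55% of all genes), but 0 higher and 44 lower with centred arrays (14.1% and 47.4%). Its lower member was Cdc6. In Swiss 19, Cdt1 and Rrm2 were higher and Fen1, Tk1, Pole2 and Rfc5 lower, 2 and 4 in all (5.57% and 4.79%), but 39 were higher and 1 lower with centred arrays (46.9% and 22.7%). Tk1 in Swiss 19 had 1988 and 2324, against 1380 to 4971 on all other arrays, with the Swiss 3 arrays alone below it. In Swiss 5, Mcm7, Tk1, Pole and Rfc5 were higher and Dut lower, 4 and 1 (4.23% and 3.83%), but 33 were higher and 0 lower with centred arrays (27.7% and 2.59%). In Swiss 22, Rfc5 was higher and Pcna, Orc4, Dut, Mcm3 and Pole2 lower, 1 and 5 (5.62% and 4.57%), but 43 were higher and 0 lower with centred arrays (48.9% and 16.8%). With the trimmed-mean scaling, Swiss 2 had 4 higher and 0 lower (1336 and 1449 of 18193 genes) and Swiss 19 2 and 2 (667 and 643). Swiss 5 had 1 and 0 there (527 and 466), and Swiss 22 1 and 3 (748 and 560). Several of the quantile-normalized counts of these lines also changed with single arrays left out. Calls over all genes fell as well when a line lost an array of its own. Swiss 5 had 2 higher and 0 lower without its array 1 (557 and 492 of 18193 genes, from 770 and 697). It had 1 higher and 0 lower without its array 2 (467 and 410) or its array 3 (513 and 446). Without array 1 of Swiss 19 the Swiss 5 count was 2 higher and 1 lower (684 and 611). Swiss 22 had 0 higher and 3 lower without its array 1 (644 and 490, from 1023 and 831) or its array 3 (611 and 517). Without its array 2 it had 1 higher and 3 lower (610 and 466). It had 2 higher without array 3 of Swiss 2, array 3 of Swiss 9, array 1 of Swiss 3 or array 2 of Swiss 19 (1054, 995, 1007 and 901). Swiss 19 had 2 higher and 2 lower without its array 1 (395 and 288, from 1013 and 871).

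The members followed each other across the 7 lines. The correlation of a member's line means with the mean of the other members had a median of 0.89, and 36 of 46 were over 0.8, where 5.47% of the other genes were. Mcm5 (0.995) and Gmnn (0.992) followed it most closely, and Orc1 (-0.49), Orc5 (-0.44), Fen1 (0.24) and Orc3 (0.34) least. Without Swiss 3 the median over 6 lines was 0.72 and 16 members were over 0.8. The share of other genes over 0.8 in 6 lines was not computed, so that count has no background. These correlations describe 7 points that share arrays and their normalization.

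Other probe sets of the same genes gave a second reading. The members have 53 probe sets besides those used, of which 35 were above background in all 7 lines. All 35 had a negative difference in Swiss 3, and 24 passed the test over all probe sets. The share of all probe sets that passed was not computed. Over genes, 11.7% were lower in Swiss 3. The other probe sets of Rrm2 had log2 differences of -1.46 and -1.34, and that of Mcm5 which was above background in every line -1.13. Between classes 29 of the 35 differences were positive with quantile normalization. Other normalizations and the share of all probe sets were not computed for that count.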

How the data were processed

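Per the labels' protocols, RNA was primed with oligo-dT, and each sample's biotinylated cRNA went onto an array of its own. The deposited value of a probe set was an intensity on a linear scale. Its summarization and scaling were not given in the sources used here. Of 45037 probe sets that are not controls, 34945 had 1 gene symbol, 932 several and 9160 none. Values were turned into log2(deposited intensity + 32) and quantile-normalized, and a gene was its probe set with the highest mean. Scaled intensities have a trimmed mean of 500 (2% left out at each end).

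With limma 3.58.1 in R 4.3.3, classes were compared on 7 line means and lines on 20 arrays, p-values adjusted by Benjamini-Hochberg across the 18193 genes, and 0.05 as threshold. The number of arrays limits the precision. The fits were tested on simulated data. No 2 arrays were identical. Values per line were given for the members with the largest range of line means and the largest class difference in each role. Dut was added outside that rule because it had the lowest p between classes. Members, lists and tests were chosen with earlier results of these data known. Alternatives covered normalization, pseudocount, probe set choice, brightness, replicate block and each line or array left out. The contrasts of Swiss 3, Swiss 8 and Swiss 9 against fewer lines, or within the dim or bright arrays, were added after seeing the data.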

Additional observations from a re-analysis of the deposited data

Results flagged for a closer look

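In each of 46 groups of 4 preadipose line means, on the log2 scale, the highest or lowest value's gap to its neighbour was divided by the range and set against Dixon's critical value for 4 samples. Chance passes about 1 in 20 such groups, and 2 of 46 passed. Pole was highest in Swiss 2, at 6.69 against 6.60, 6.59 and 6.59 in Swiss 8, Swiss 9 and Swiss 19, with a gap of 0.912 of the range. The spread itself was narrow, and the level was 1002 in Swiss 2 against 958 to 970 in the others. Rrm2 was lowest in Swiss 2, at 8.12 against 8.81, 8.74 and 8.73, with a gap of 0.891 of the range. Its level was 3709 in Swiss 2 against 5924 to 6584 in the others.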

How the results depend on the processing

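The count of members lower in Swiss 3 was 39, 36 to 39 with an array left out, and 25 within the bright arrays, where Swiss 3 has 1 array. No member was called between classes with any line or array left out. Members called higher numbered 1 with the smaller pseudocount of 8 (0.61% of all genes), 2 among genes in the upper part of mean level (1.87%), 16 within the dim arrays and 15 with a random block for line (5.34%). The median class difference was 0.75 within the dim arrays, -0.12 with arrays centred on their medians, -0.25 without normalization, and 0.066 to 0.39 with a line or array left out. With arrays scaled to the trimmed mean, it lay 0.38 above the median of all genes, and 40 members had a positive difference. Members differing among preadipose lines were 42 with centred arrays and 45 without normalization (68.7% and 70% of all genes), and 16 to 26 with an array left out. Among non-adipogenic lines they were 30 to 36, and among all lines 36 to 40, with an array left out. Calls summed over the 7 line contrasts were 113, and 104 to 115 with an array left out. They were 220 with centred arrays and 270 without normalization, where calls over all genes rose as well. For example, with centred arrays genes higher in Swiss 22 went from 5.62% to 48.9%, and genes lower in Swiss 2 from 9.55% to 47.4%. The larger sums are thus not particular to the members. Counts of members higher in Swiss 8 were 1 with centred arrays and 0 without normalization (1489 and 9 of 18193 genes). They were 18 against the 5 lines other than Swiss 3, 6 within the dim arrays without Swiss 3, and 20 to 31 with an array left out. Swiss 9 counts were 0 and 0 (1032 and 44 of 18193 genes), 9, 2, and 15 to 21. With arrays scaled to the trimmed mean, the counts were 24 in Swiss 8 and 16 in Swiss 9 (1059 and 990 of 18193 genes). With centred arrays the class differences of Pole, Rpa1, Chaf1b and Rpa3 reversed (-0.18, -0.28, -0.14 and -0.10). Without normalization those of Cdt1, Mcm5, Pole, Rpa1, Chaf1b, Pole2 and Rpa3 did (-0.035, -0.0083, -0.31, -0.41, -0.27, -0.048 and -0.23). Within the dim arrays Fen1 reversed (0.25), and within the bright arrays Chaf1b and Pole2 (-0.037 and -0.038). With a line or array left out, the class difference of Pole ranged from -0.088 (without Swiss 3) to 0.45, and the Swiss 3 difference of Fen1 from -0.16 to 0.0027 (without its array 2). The cause was not tested.

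Deviations of arrays with the same number in different lines correlated by -0.068 to 0.094 over 57 pairs, so the numbers were not taken to pair samples. With the replicate block the counts were 0 and 0 between classes, 22, 34 and 38 in the F tests, 39 lower in Swiss 3, 30 higher in Swiss 8 and 18 higher in Swiss 9, and the median class difference was 0.26.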

Other observations

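Genes that work beside the members were measured as 2 further lists, chosen with earlier results of these data known. Their values below are from quantile-normalized arrays, and other scalings were not run for these lists. Of 36 other replication genes measured, 1 was called higher in preadipose lines and 0 lower (limma, against 0.583% and 0.951% of all genes). Pole4, a histone-fold subunit of polymerase epsilon, had line means of 1615 (Swiss 2), 2115 (Swiss 8), 1951 (Swiss 9) and 1855 (Swiss 19) in preadipose lines, against 952 (Swiss 3), 1333 (Swiss 5) and 1201 (Swiss 22) in non-adipogenic lines. The ratio of class means was 1.62 (limma, log2 difference 0.52 ± 0.091 SE, adjusted p = 0.043). In Swiss 3, 23 of the 36 were lower and 3 higher, where 11.7% and 12.2% of all genes were. Uhrf1, which guides maintenance DNA methylation, was 3.55-fold lower, Top2a, the topoisomerase that untangles sister chromatids, 2.43-fold lower, and Dbf4, the activator of the Cdc7 kinase, 2.35-fold lower. The 3 higher ones were Pold4, a small subunit of polymerase delta, Rfc1, the large subunit of the clamp loader, and Ctps, CTP synthase.

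Of 28 genes of E2F, RB and G1/S control, 1 was called higher in preadipose lines and 0 lower (limma, against the same 0.583% and 0.951% of all genes). E2f6, a repressor of the E2F family, had 595 (Swiss 2), 747 (Swiss 8), 652 (Swiss 9) and 701 (Swiss 19) in preadipose lines, against 398 (Swiss 3), 337 (Swiss 5) and 316 (Swiss 22) in non-adipogenic lines. The ratio of class means was 1.92 (limma, log2 difference 0.47 ± 0.059 SE, adjusted p = 0.015). In Swiss 3, 16 of the 28 were lower and 2 higher, where again 11.7% and 12.2% of all genes were. Cyclin D1 (Ccnd1) was 2.59-fold, cyclin A2 (Ccna2) 2.81-fold and Myc 2.19-fold lower in Swiss 3, and the activator E2f1 was 1.42-fold lower. Cdk6, a partner of the D cyclins, and Rbl2, the p130 pocket protein, were higher, by 0.42 and 0.22 on the log2 scale. E2f3 and E2f4 did not pass, with differences of -0.04 and -0.02 (limma, adjusted p = 0.83 and 0.92).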
